A study of Bos taurus with 21 samples.

Results

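Milk somatic cells of Holstein cows late in lactation were compared between high yielding (HY) and low yielding (LY) animals. The members were the cows with a lactation period of at least 220 days, which left 9 of the 21 sequenced cows, 3 HY and 6 LY. The study sequenced the RNA of cells recovered from milk and asked which genes go with milk yield, a breeding value derived from a national production index for which no unit is given. Each sample was 1 cow, and no cow had been treated. The limit kept HY cow 3064 at 220 days and left out LY cow 3135 at 200 days, the nearest animals on its 2 sides.

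The HY cows 3014, 3057 and 3064 stood at 268, 265 and 220 days, in parity 3, 2 and 2, with milk yield breeding values of 269.076, 459.059 and 468.053. The LY cows 2864, 3264, 3272, 7598, 7628 and 7643 stood at 223 to 270 days, in parity 2 to 4, with breeding values from -181.656 to 86.92 and a median of -59.042. The breeding values of the 2 groups did not overlap, since they define the groups, while days and parity did.

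Cells in milk are mostly leukocytes, that is macrophages, neutrophils and lymphocytes that cross the mammary epithelium, together with epithelial cells shed from the secretory lining. The epithelial cells bring transcripts of caseins and whey proteins, and the leukocytes bring those of phagocytosis, antigen presentation and inflammation. Towards the end of lactation the secretory tissue declines, and leukocytes tend to become more numerous in milk. The counts are of bulk RNA, so that fewer cells of a type and less RNA per cell cannot be told apart.

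The deposited tables held 13570 gene rows, of which 12090 had a count in at least 1 of the 9 cows. The HY libraries held 11038603 to 17116089 counts on genes, and the LY libraries 10350354 to 22542235. All 36 pairs of libraries differed by far more than counting noise, with a lowest chi-square per degree of freedom of 95.64. Markers of the expected cells were present in every cow. The epithelial KRT8 ranged from 6.03 to 118 CPM (the count relative to the TMM-scaled library total) over both groups, the macrophage CD68 from 994 to 2700, the neutrophil S100A8 from 191 to 1850 and the T cell CD3E from 50.4 to 385. Of the marker lists used here, CXCR1 of the neutrophils and GZMB and FASLG of the cytotoxic lymphocytes had no count in any of the 9 cows. LY cow 7643 lay apart from the others on the first principal component (37% of the variance of log2 CPM) at a score of 87.2, against -49.2 to 33.1 for the other 8 cows. A mapping rate over 85% was listed for 3 of the 6 LY cows and 0 of the 3 HY cows.

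The HY libraries held fewer genes with a count than the LY libraries. Genes with at least 1 count numbered 10415, 10632 and 10834 in HY cows 3014, 3057 and 3064. In LY the lowest number was 10852, the median 10979 and the highest 11251, so that the groups did not overlap. The 3 LY cows of lower mapping rate, at 10852, 10929 and 11016, also lay above all HY cows. The mean difference was -404.3 genes (exact two-sided permutation test over 84 ways, p = 0.0119, the smallest p this design allows, and 0.0476 after Benjamini-Hochberg adjustment over 4 library values). Total count (p = 0.365), the share of the 10 most counted genes (p = 0.365) and the share of reads not assigned to a gene (p = 0.405), all adjusted values of the same exact test, did not pass. When every library was thinned to the lowest total of 10350354 counts, the HY cows had 10549 ± 141 genes (SD, n = 3) and the LY cows 10852 ± 99.3 (SD, n = 6), and the ranges of 10395 to 10671 and 10698 to 10975 stayed apart (exact permutation p = 0.0119 before adjustment). Without the milk protein genes and at a depth of 7160721 counts, the ranges of 10319 to 10545 and 10539 to 10858 met, with a difference of -352 (exact permutation p = 0.0238, adjusted p = 0.0952). With 1 cow left out the difference ranged from -507.8 (without 3064) to -298.3 genes (without 3014). The exact permutation test could not pass there, since with 8 cows and no other low value among the 4 the adjusted p reaches 0.0714 at best without an LY cow and 0.143 without an HY cow, and it was 0.0714 to 0.286.

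**Figure D1:**
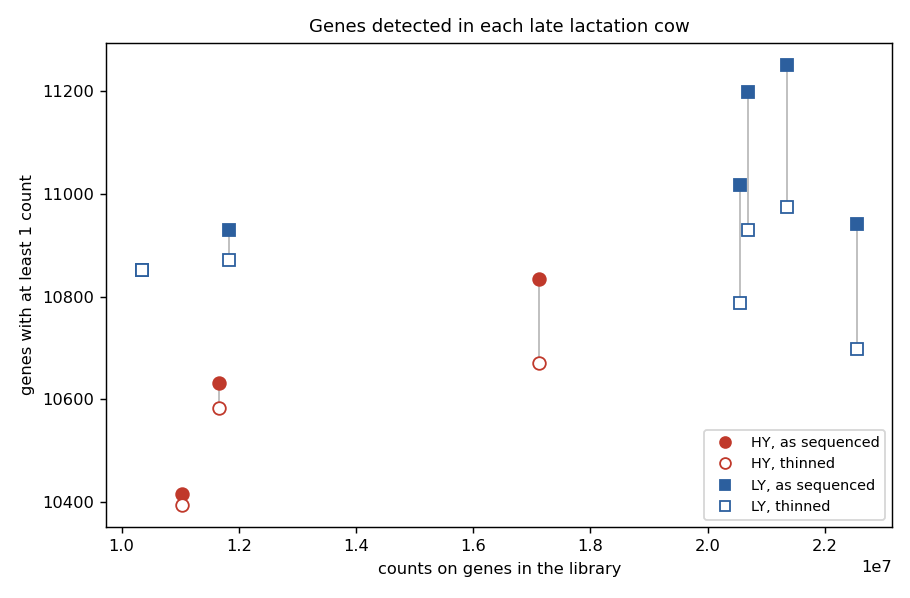
Number of genes with at least 1 count (y axis) against the total count on genes of each library (x axis) for 3 HY cows (red circles) and 6 LY cows (blue squares). Filled symbols show the libraries as sequenced and open symbols show them thinned to the lowest total. The HY cows lie between 10415 and 10834 genes as sequenced and between 10395 and 10671 after thinning, below all LY cows in both cases.

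A count in all 6 LY cows and in none of the 3 HY cows was found for 13 of 12090 genes, and 0 genes showed the reverse. The conditions were not alike, since the first asks for no count in 3 cows and the reverse for no count in 6. The LY libraries were also deeper, with a median of 20626804 counts on genes against 11669815 in HY. All 13 genes were scarce, with at most 22 counts in a cow. NOS3, the endothelial nitric oxide synthase, had 1, 3, 22, 3, 1 and 11 counts in LY cows 2864, 3264, 3272, 7598, 7628 and 7643. POPDC3, a Popeye domain protein best known from heart and muscle, had 1 to 10 counts, and TRPM8, the cold-sensing ion channel, had 1 to 6. The other 10 were C15H11orf91, IGSF9, MIR26B, PHLDA2, PYY2, SARDH, SLC37A4, SLC38A11, SPTSSB and YBX2. A count of 0 allows up to 3 counts in a library, or 0.175 to 0.272 CPM before TMM scaling in the HY cows, so that absence was not shown for any of them. In comparison, 9698 genes were counted in all 9 cows.

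No gene passed the test of HY against LY. Among 9880 genes with enough counts, the quasi-likelihood test of edgeR called 0 genes (0%) at an adjusted p under 0.05, and the lowest adjusted p was 0.9998. At an unadjusted p under 0.05 it listed 224 genes (2.27%), 70 with a higher estimate in HY (0.709%) and 154 with a higher estimate in LY (1.56%). With no difference in any gene a share of about 0.05 would be listed, and the share here was lower, as was that of DESeq2 below. The values of the groups did not overlap for 150 genes (1.52%), 72 with all HY cows above (0.729%) and 78 with all LY cows above (0.789%). The Wald test of DESeq2 called 4 of 9802 genes (0.0408%), and listed 356 (3.63%) at an unadjusted p under 0.05. All 4, RNASE1, SLC10A1, IGLL1 and PRSS2, had higher counts in LY. The count of 224 was 812 without HY cow 3014, 457 without LY cow 7643, 144 without LY cow 3264 and 103 without HY cow 3057. The DESeq2 calls numbered 69 without HY cow 3014, 2 without HY cow 3057 or LY cow 7628, and 1, RNASE1, without HY cow 3064. The log2 fold changes below, of HY over LY with ± SE, are those of edgeR unless DESeq2 is named, and the edgeR adjusted p was 0.9998 for every gene named from the late comparison. The median standard error of a log2 fold change was 0.434, and the biological coefficient of variation was 0.523.

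RNASE1 encodes a secreted ribonuclease of the pancreatic type. Its level was 4.61, 0.615 and 0.88 CPM in HY cows 3014, 3057 and 3064. In LY the lowest value was 9.74 CPM, the median 30.4 and the highest 83.6. Even the highest HY cow lay below the lowest LY cow. The log2 fold change of HY over LY was -4.25 ± 0.91 (SE) in edgeR, with an unadjusted p under 0.05. DESeq2 gave -4.21 with an adjusted p of 7.52e-05. The gene was called by DESeq2 in all 9 fits that left out 1 cow, with adjusted p from 1.73e-09 to 0.027, and without the 3 LY cows of higher mapping rate (adjusted p = 1.39e-06). It was not called by DESeq2 when all 21 cows were fitted together in 4 groups (adjusted p = 1).

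SLC10A1, a sodium-dependent bile acid transporter best known from liver, was at 0.624, 0.691 and 0.587 CPM in the 3 HY cows. In LY it ranged from 1.89 to 5.57 CPM with a median of 3.28. The HY values lay within a narrow band below all LY cows, and rested on 5, 9 and 14 counts. The log2 fold change was -2.49 ± 0.53 (unadjusted p under 0.05), and DESeq2 gave an adjusted p of 0.0119. When the limit was lowered to 160 days, which added 2 HY and 2 LY cows, the log2 fold change of SLC10A1 was -0.01, so that the difference was no longer seen. The DESeq2 call was lost in 4 of the 9 fits that left out 1 cow, those without 3057, 3064, 3272 or 7628, in which the adjusted p reached 0.448. Without the 3 LY cows of higher mapping rate it was 0.232, with parity and lactation period as covariates 0.0747, and in the fit of 4 groups 1.

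IGLL1, an immunoglobulin lambda-like polypeptide, belongs to a family of similar light chain sequences whose reads may be shared, so its counts are uncertain. It was at 0.249, 1.77 and 1.22 CPM in the HY cows. The LY cows ranged from 4.58 to 44.0 CPM with a median of 5.7, and the highest value was that of cow 7643. The groups did not overlap. The log2 fold change was -3.54 ± 0.97 (unadjusted p under 0.05). DESeq2 gave an adjusted p of 0.0288, which rose past 0.05 without 3057 (0.0875), without 3064 (0.448) and without the 3 LY cows of higher mapping rate (0.152). DESeq2 gave no adjusted p for it without 7628 or in the fit of 4 groups.

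PRSS2, a trypsinogen, split the LY cows. It had 1, 3 and 3 counts in HY cows 3014, 3057 and 3064, and 0 and 1 counts in LY cows 2864 and 3272. The other 4 LY cows had 706, 637, 877 and 2572 counts. The groups therefore overlapped, although the fitted log2 fold change was -8.17 ± 2.39 (unadjusted p under 0.05). DESeq2 gave an adjusted p of 0.0453. It kept the gene under 0.05 in only 2 of the 9 fits that left out 1 cow, those without 2864 or 3272. The adjusted p was 1 with the covariates and in the fit of 4 groups. Without the 3 LY cows of higher mapping rate, too few cows had counts of PRSS2 for it to be tested. Trypsinogen genes are near-identical copies, and reads may be assigned to either copy.

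The genes with the lowest p among those whose HY cows all lay above the LY cows had smaller estimates. The antimicrobial peptide gene DEFB4A, a beta-defensin with close paralogs in cattle, was at 40.3, 163 and 52.3 CPM in HY cows 3014, 3057 and 3064. In LY it ranged from 20.5 to 39.1 CPM with a median of 30.9. The lowest HY cow was only just above the highest LY cow. The log2 fold change was 1.48 ± 0.41 (unadjusted p under 0.05), and it was 0.6 without HY cow 3057 and 0.5 with a limit of 160 days.

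Some of these genes act in lipid or sugar metabolism. GM2A, the activator protein needed to degrade the ganglioside GM2 in lysosomes, was at 141, 157 and 249 CPM in HY and at 80.9 to 111 CPM in LY, with a median of 96.5. Its log2 fold change was 0.92 ± 0.26 (unadjusted p under 0.05). SPTLC2, a subunit of the serine palmitoyltransferase that starts sphingolipid synthesis, was at 113 to 147 CPM in HY and 61.8 to 97.3 in LY. GK, the glycerol kinase, was at 286 to 378 CPM in HY and 118 to 286 in LY, so that the lowest HY cow and the highest LY cow all but met. ADPGK, an ADP-dependent glucokinase, was at 41.4 to 62.3 CPM in HY and 26.0 to 35.7 in LY. The estimates of the last 3 were 0.63, 0.77 and 0.64 on the log2 scale.

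The remaining genes of this kind had varied roles. TNS1, a tensin that links actin to cell adhesions, was at 59.4, 41.8 and 54.9 CPM in HY and 13.7 to 36.8 in LY, a log2 fold change of 1.11 ± 0.34. VDAC2, a channel of the outer mitochondrial membrane, was at 131 to 200 CPM in HY and 76.3 to 117 in LY. SMAD6, an inhibitor of bone morphogenetic protein signalling, was at 2.23 to 3.02 CPM in HY and 0.636 to 1.47 in LY. FAM167A was at 4.86 to 9.22 CPM in HY and 0.58 to 4.43 in LY, and LOC618633 at 1.72 to 9.35 in HY and 0.464 to 1.65 in LY. With all 9 cows none passed the adjusted threshold in edgeR or DESeq2. Without the LY cows of higher mapping rate DESeq2 called FAM167A (log2 fold change 2.45, adjusted p = 0.0237).

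On the LY side the remaining genes were mostly scarce. CAND2, a relative of the cullin-binding protein CAND1, was at 0.615 to 1.34 CPM in HY and 2.29 to 4.75 in LY, a log2 fold change of -1.8 ± 0.5 (unadjusted p under 0.05). FBXO40, a muscle F-box protein, was at 0.768 to 2.37 CPM in HY and 2.94 to 7.0 in LY. MIA, a small secreted protein, was at 0.615 to 1.76 in HY and 2.36 to 4.2 in LY, TSPAN2, a tetraspanin, at 1.3 to 2.37 in HY and 2.4 to 8.27 in LY, and the orphan nuclear receptor NR2E1 at 0 to 0.307 in HY and 0.505 to 4.17 in LY. More counts stood behind FAM193B, at 8.53 to 10.98 CPM in HY and 16.04 to 31.6 in LY, and behind the pseudouridine synthase PUS10, at 8.76 to 15.96 in HY and 18.7 to 34.9 in LY. Their log2 fold changes were -1.11 ± 0.32 and -1.0 ± 0.33. With a limit of 160 days that of PUS10 was -0.32 and that of NR2E1 -0.52.

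**Figure D2:**
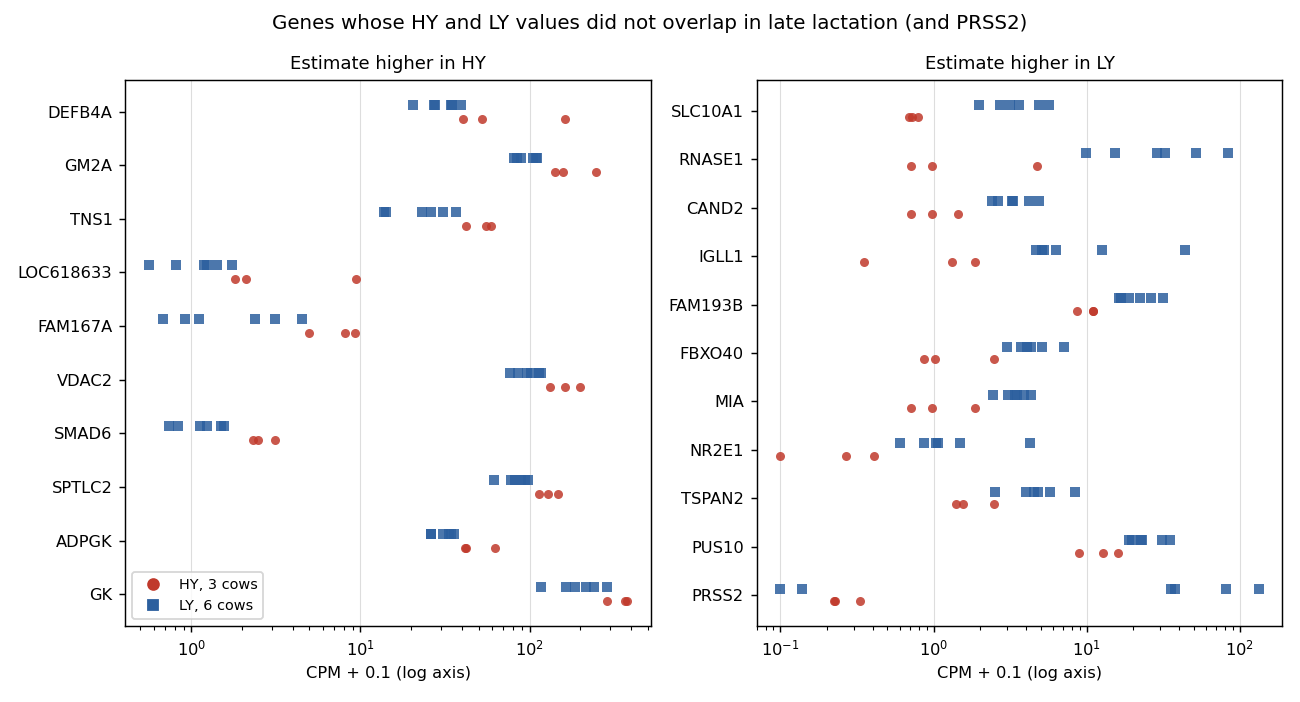
CPM plus 0.1 on a log axis for the 10 genes per direction with the lowest p among those whose groups did not overlap, and for PRSS2, in 3 HY cows (red circles) and 6 LY cows (blue squares). RNASE1 lies at 0.615 to 4.61 CPM in HY and 9.74 to 83.6 in LY, while PRSS2 overlaps, with 2 LY cows at 1 count or fewer.

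The gene lists of cell types, milk synthesis and cell functions are described by their estimates, because 0 members of any list were called by edgeR. Over all 9880 genes the estimate was higher in HY for 49.3%, and the median log2 fold change was -0.01. The 7 milk protein genes all had a higher estimate in LY, with a median of -1.21. Their summed level was 207000, 4370 and 40000 CPM in HY cows 3014, 3057 and 3064, and ranged from 3000 (cow 7643) to 406000 (cow 7598) with a median of 198000 in LY. The lowest of all 9 cows was thus an LY cow, and the groups overlapped over nearly their whole range. CSN2, the beta-casein, was at 68940, 1291 and 15130 CPM in HY and at 788 to 132200 in LY, a log2 fold change of -1.21 ± 1.41 (unadjusted p above 0.05). The estimate for PAEP, the beta-lactoglobulin, was -1.51 ± 1.27. The median of the list ranged from -3.08 without HY cow 3014 to -0.65 without HY cow 3057.

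All 21 keratin and junction genes had a higher estimate in LY (median -0.72), and their summed level was 1030, 236 and 232 CPM in HY and 239 to 2650 CPM in LY. The median was -0.25 without LY cow 7598 and -1.61 without HY cow 3014. Cows 3014 and 7598 were the highest of their groups, as they were for the milk proteins. KRT19, a simple epithelial keratin, was at 291, 45.9 and 45.5 CPM in HY and at 53.1 to 1100 in LY, with cow 7598 highest. Of 27 genes of milk fat synthesis and globule secretion, 18 had a higher estimate in LY (median -0.36, from -0.79 without 3014 to -0.21 without 3057). CIDEA, a lipid droplet protein, had the lowest p of this list at -1.64 ± 0.9 (unadjusted p above 0.05), and the fatty acid receptor CD36, which macrophages also express, was at 2146 to 3350 CPM in HY and 1122 to 3441 in LY. LALBA, the alpha-lactalbumin that directs lactose synthesis, was at 8187, 91.3 and 1904 CPM in HY and 123 to 15970 in LY. The other genes of lactose synthesis are broadly expressed, and 8 of the 9 members tested had a higher estimate in HY (median 0.24, or 0.03 without 3014).

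Among hormone and remodelling genes, 10 of 14 of prolactin, growth hormone and IGF signalling had a higher estimate in LY (median -0.24, from -0.82 without 3014 to -0.05 without 3057). CISH, a suppressor of cytokine signalling induced by prolactin and other cytokines, was at 35.5, 26.5 and 11.7 CPM in HY. In LY its median was 29.1 CPM but cow 7643 reached 558. Of 24 genes of involution and tissue remodelling, 14 had a higher estimate in LY (median -0.23), and the list's median was 0.09 without HY cow 3064 and 0.27 without the 3 LY cows of higher mapping rate. TGFB2, a growth factor of the TGF-beta family, was at 3.87, 1.84 and 1.59 CPM in HY and at 2.17 to 16.4 in LY (log2 fold change -1.75 ± 0.7, unadjusted p under 0.05). Its relative TGFB3 did not overlap, at 0.374 to 0.615 CPM in HY and 0.734 to 1.91 in LY. The insulin-like growth factor binding protein IGFBP5 had no count in any of the 9 cows.

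Most macrophage genes had a higher estimate in HY and most lymphocyte genes in LY, by amounts that moved with single cows. Of 15 macrophage and monocyte genes, 13 had a higher estimate in HY (median 0.44), and the median was 0.21 without HY cow 3057 and 0.83 without HY cow 3014. VSIG4, a complement receptor of tissue macrophages, was at 105, 410 and 361 CPM in HY and at 103 to 235 in LY, a log2 fold change of 1.11 ± 0.42 (unadjusted p under 0.05). MERTK, a receptor for the uptake of dying cells, was at 102, 216 and 161 CPM in HY and at 51.9 to 123 in LY (0.93 ± 0.35, unadjusted p under 0.05). For both genes HY cow 3014 was the only HY cow within the LY range. The summed list was at 5560, 12900 and 9230 CPM in HY and 4840 to 11300 in LY.

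The neutrophil genes depended on single cows. Of 12 members, 10 had a higher estimate in HY (median 0.37), with a summed level of 22300, 7700 and 2770 CPM in HY cows 3014, 3057 and 3064 and 5450 to 16600 in LY. Both the highest and the lowest of the 9 cows were HY. The median was -0.9 without HY cow 3014 and 0.88 without HY cow 3064. MMP9, the gelatinase of neutrophil granules, was at 237, 71.4 and 61.6 CPM in HY and 42.6 to 94.1 in LY (log2 fold change 0.94 ± 0.44, unadjusted p above 0.05).

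Of 18 T cell genes, 16 had a higher estimate in LY (median -0.28), but the summed levels of 528 to 1450 CPM in HY lay within the 390 to 2180 CPM of LY. The median was 0.09 without HY cow 3057 and -0.66 without HY cow 3064, and kept its sign in 7 of the 9 fits that left out 1 cow. ZAP70, the kinase next to the T cell receptor, was at 62.0, 15.1 and 55.1 CPM in HY and 37.0 to 184 in LY. Of 13 genes of cytotoxic lymphocytes, 10 had a higher estimate in LY (median -0.81). The natural killer receptors KLRD1 and KLRK1 had the lowest p of the list. KLRD1 was at 1.87, 0.538 and 1.05 CPM in HY and 0.509 to 14.7 in LY (log2 fold change -2.63 ± 0.88, unadjusted p under 0.05) and KLRK1 at 3.76 to 9.98 in HY and 2.8 to 46.9 in LY (unadjusted p under 0.05). In both genes LY cow 7598 was the lowest of the LY cows and overlapped with HY. The cytotoxic list's median was -0.02 without LY cow 3264.

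Of 7 genes of B cells and immunoglobulin secretion, 6 had a higher estimate in LY (median -0.9, or -0.57 without HY cow 3064). The B cell kinase BLK was at 1.25, 3.38 and 3.39 CPM in HY and 3.31 to 19.9 in LY (log2 fold change -1.72 ± 0.78, unadjusted p under 0.05). PIGR, the epithelial receptor that carries immunoglobulin A into milk, was at 161, 6.53 and 30.2 CPM in HY and 8.5 to 519 in LY. Its 4 highest cows, 7598, 2864, 3264 and 3014, also had the 4 highest milk protein sums. MHC class II showed no lean, with 4 of 10 estimates higher in HY and a median of -0.16 that was 0.15 without LY cow 7643, and its most abundant member CD74 was at 1800 to 4006 CPM in HY and 1025 to 8944 in LY.

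**Figure D3:**
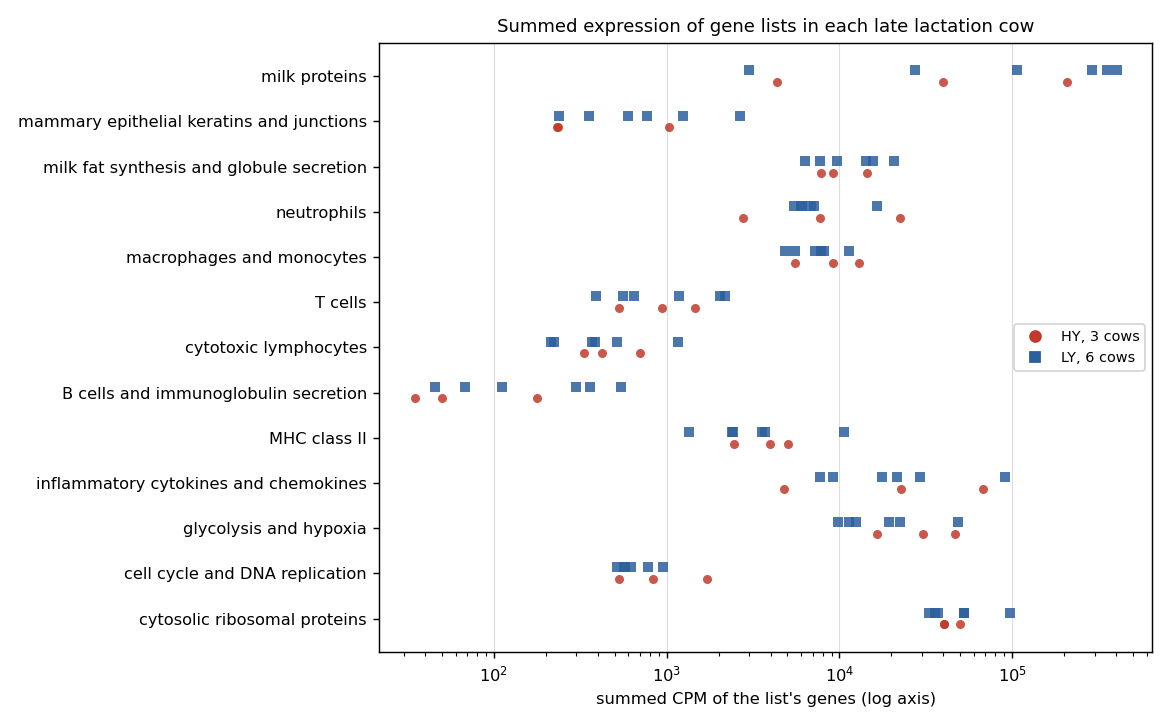
Summed CPM of 13 gene lists (rows) on a log axis in 3 HY cows (red circles) and 6 LY cows (blue squares). All 13 lists overlap between the groups. Milk proteins spread from 3000 to 406000 CPM in LY and from 4370 to 207000 in HY.

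The inflammatory cytokine and chemokine genes stood out in 1 cow of each group, and the other defence lists ordered the cows differently. The 26 inflammatory cytokine and chemokine genes had a summed level of 67500 CPM in HY cow 3014 and 90500 in LY cow 7643, against 4750 to 29400 in the other cows. Of these genes 19 had a higher estimate in LY (median -0.27), and the median was -1.62 without 3014 and 0.57 without 7643. CSF3, the granulocyte colony-stimulating factor, was at 0.21 to 1.31 CPM in HY and at 0.247 to 2.02 in 5 LY cows, while LY cow 7643 had 163. IL1RN, the interleukin-1 receptor antagonist, was at 22190, 6086 and 1045 CPM in HY and at 1475 to 26710 in LY. Of 14 acute phase and antimicrobial genes, 11 had a higher estimate in LY (median -1.17), DEFB4A above being one of the 3 exceptions, and the summed level was lowest in 3014 (972 CPM) and 7643 (1120) and highest in LY cow 7598 (2990). The median ranged from -2.05 without 3014 to -0.71 without 3057. The interferon list had 16 of 24 estimates higher in HY (median 0.26), with the highest sums in HY cow 3014 (4370 CPM) and LY cow 3272 (3970). Its median was -0.08 without 3014 and 0.57 without 3272. OAS1Y, an antiviral oligoadenylate synthetase with close paralogs, was at 106, 82.3 and 153 CPM in HY and 32.4 to 112 in LY (log2 fold change 1.04 ± 0.39, unadjusted p under 0.05). Only LY cow 3272 reached the HY range of OAS1Y. Complement had 11 of 18 higher in HY (median 0.14, from 0.06 without 3014 to 0.39 without 7643).

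The genes of glycolysis and hypoxia leaned to HY in their estimates, with 20 of 24 genes and a median of 0.35. Their summed level was 46600, 30300 and 16600 CPM in HY cows 3014, 3057 and 3064 and 9860 to 48700 in LY. The groups thus overlapped, and the highest of the 9 cows was LY cow 7643. LDHA, the lactate dehydrogenase subunit that favours lactate formation, was at 1394, 1002 and 867 CPM in HY cows 3014, 3057 and 3064 and at 344 to 930 in LY with a median of 545. Only LY cow 7628 reached the HY range. The log2 fold change was 0.93 ± 0.39 (unadjusted p under 0.05). Its partner subunit LDHB did not overlap, at 835 to 1027 CPM in HY and 461 to 758 in LY (0.55 ± 0.31, unadjusted p above 0.05). The myeloid hexokinase HK3 was at 121 to 234 CPM in HY and 78.2 to 190 in LY (unadjusted p under 0.05). The glucose transporter SLC2A3 was at 21750, 5814 and 2108 CPM in HY and 1457 to 13160 in LY. The list's median was 1.02 without the 3 LY cows of higher mapping rate and 0.87 without LY cow 7643 alone, but 0.23 without HY cow 3057.

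Cell cycle and DNA replication had the most one-sided estimates on the HY side, 26 of 27 genes with a median of 0.6. The summed level was 529, 837 and 1720 CPM in HY cows 3014, 3057 and 3064 and 515 to 951 in LY. Cow 3064 alone exceeded the LY range, and the median was -0.11 without it. RRM2, a subunit of the ribonucleotide reductase, was at 49.6, 78.7 and 242 CPM in HY and 26.3 to 77.7 in LY (log2 fold change 1.21 ± 0.47, unadjusted p under 0.05). MCM4, a subunit of the replicative helicase, was at 14.6, 40.6 and 70.6 CPM in HY and 17.5 to 26.6 in LY (0.97 ± 0.39, unadjusted p under 0.05). In MCM4 the 3 HY cows lay on both sides of the LY range.

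Genes of protein production and breakdown leaned to HY by small amounts. The estimate was higher in HY for 18 of 21 endoplasmic reticulum chaperone and stress genes (median 0.19), 25 of 31 secretory coat and translocon genes (0.16), 32 of 37 proteasome subunits (0.18), 23 of 32 translation initiation factors (0.12) and 13 of 19 amino acid transporters (0.19). With 1 cow left out these medians stayed above 0, from 0.02 for the proteasome and 0.07 for amino acid transporters, both without HY cow 3057, to 0.38 for the chaperones without HY cow 3014. PDIA3, a protein disulfide isomerase, did not overlap, at 945, 993 and 1006 CPM in HY and 557 to 939 in LY, but the log2 fold change was 0.35 ± 0.31 (unadjusted p above 0.05). SEC24C of the vesicle coat, the calcium pump ATP2A2, which fills the endoplasmic reticulum, and the proteasome subunit PSMD5 were likewise apart, with estimates of 0.27, 0.34 and 0.26. ATP2A2 belongs to the calcium transport list. These are 1 of 21 chaperone and stress, 1 of 31 coat, 1 of 37 proteasome and 1 of 13 calcium transport genes, against 0.729% of all genes. The initiation factor EIF2B4 was apart the other way, at 38.3 to 42.0 CPM in HY and 43.3 to 68.5 in LY (-0.39 ± 0.25). In contrast, 66 of 79 cytosolic ribosomal protein genes had a higher estimate in LY (median -0.23), 2 of the 79, RPS24 and RPS27A, with all LY cows above, against 0.789% of all genes. The list's median was 0.06 without LY cow 7643. Ribosomal protein genes share reads with processed copies, so their counts are uncertain. The respiratory chain had 51 of 76 higher in HY (median 0.1, or -0.18 without HY cow 3057). Its member COX7B was apart on the LY side, at 1.84 to 2.64 CPM in HY and 3.14 to 6.77 in LY.

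Of 38 splicing factors 24 had a higher estimate in HY (median 0.11, or -0.05 without HY cow 3014), and 5, HNRNPAB, HNRNPK, HNRNPL, SF3A3 and SF3B3, were above all LY cows in each HY cow. That is 5 of 38 genes, against 0.729% of all genes. The share is not independent evidence, since HNRNPL and SF3B3 are among the genes the study plotted from these same cows. The list was also written with earlier results of these data known. Of the 5 genes, only SF3B3 had an unadjusted p under 0.05. SF3B3, a subunit of the U2 particle, was at 289, 242 and 235 CPM in HY and 156 to 204 in LY (log2 fold change 0.57 ± 0.24, unadjusted p under 0.05). SRSF5, a serine and arginine rich splicing factor, was at 176 to 301 CPM in HY and 236 to 929 in LY (-1.04 ± 0.47, unadjusted p under 0.05).

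For the remaining lists the sign of the median depended on single cows. Of 19 cathepsin and iron handling genes 14 had a higher estimate in HY (median 0.18, or -0.17 without HY cow 3057), and the protease CTSB was at 9365 to 21110 CPM in HY and 4629 to 18140 in LY. Cholesterol synthesis and efflux had 9 of 27 estimates higher in HY (median -0.1), immediate early response genes 7 of 18 (median -0.08) and calcium transport 8 of 13 (median 0.05). With 1 cow left out the medians of these 3 lists ranged from -0.24 to 0.04, from -0.89 to 0.29 and from -0.14 to 0.18. The immediate early gene EGR1 was at 292, 109 and 129 CPM in HY and 186 to 710 in LY (log2 fold change -1.06 ± 0.49, unadjusted p above 0.05).

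**Figure D4:**
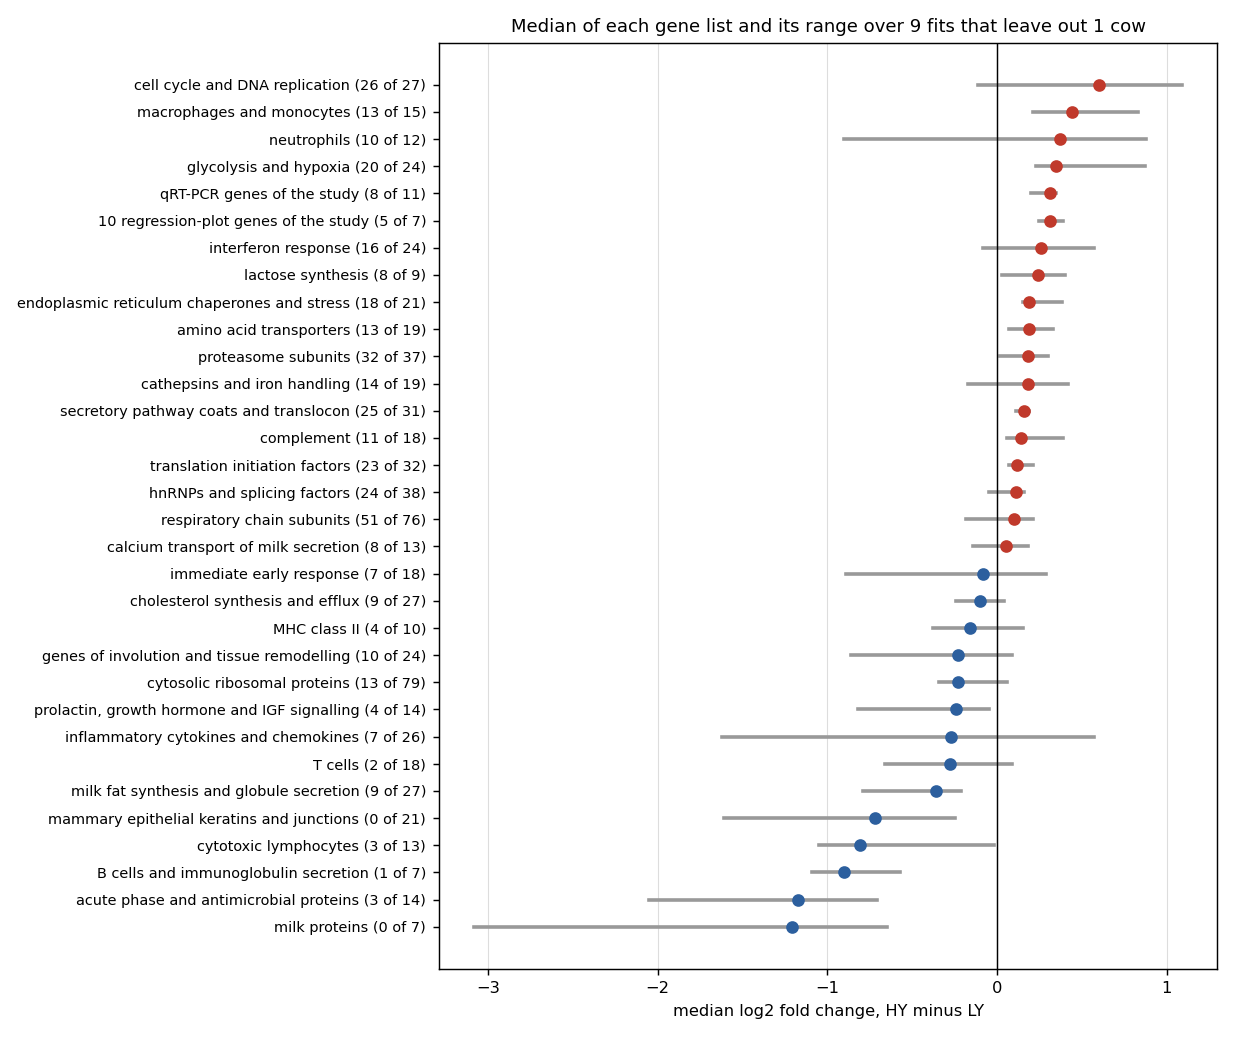
Median log2 fold change of HY minus LY for 32 gene lists (points, red above 0 and blue below) with the range of that median over 9 fits that each leave out 1 cow (grey bars). Row labels give the number of tested members with a higher estimate in HY. The bars of neutrophils (-0.9 to 0.88) and of cell cycle and DNA replication (-0.11 to 1.09) cross 0, and that of milk proteins (-3.08 to -0.65) does not.

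The genes that the study chose to plot or to measure by qRT-PCR were chosen on these same cows, so their direction here is not independent evidence. Of the 10 genes in its bovine regression plots, 7 could be tested. TOX4, an HMG-box protein that binds chromatin, was at 134, 99.9 and 92.2 CPM in HY and 63.7 to 83.99 in LY without overlap (log2 fold change 0.48 ± 0.23, unadjusted p above 0.05). HNRNPL was at 290, 300.4 and 336 CPM in HY and 224 to 286 in LY, and the zinc finger gene ZNF642 was apart in the other direction, at 6.08 to 7.61 in HY and 9.78 to 15.95 in LY (-0.86 ± 0.31, unadjusted p under 0.05). COPA and EIF3L had estimates of 0.31 and 0.34 with overlapping groups, and PLS1 had 2 to 13 counts in HY and 3 to 16 in LY. ALB and FOXA1 had no count in HY and 7 and 5 counts over all LY cows, and they were too scarce to test, as was NOS3 above. Of the 11 testable qRT-PCR genes, 8 had a higher estimate in HY (median 0.31), and RNPC3, a component of the minor spliceosome, had the lowest p, at 11.7 to 14.8 CPM in HY and 10.6 to 58.3 in LY (-1.28 ± 0.51, unadjusted p under 0.05).

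The same contrast in the 12 earlier cows, 6 HY at 41 to 176 days and 6 LY at 52 to 200 days, shares no animal with the late cows. In those cows edgeR called 0 of 9161 genes (0%) at an adjusted p under 0.05 and listed 72 (0.786%) at an unadjusted p under 0.05. Of the 166 late genes with p under 0.05 that were tested in both, 91 (54.8%) had the same direction in the earlier cows, against 4375 of 9158 (47.8%) over all genes. None of the 166 had p under 0.05 in the same direction there, and 34 of 9158 genes (0.371%) did. Of the 10 named genes above in all HY cows 5 kept the direction, and of the 8 testable ones above in all LY cows 4 did.

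Of the named genes above in all late LY cows, RNASE1, IGLL1, CAND2 and PUS10 had opposite estimates in the 2 stages. RNASE1 averaged 181 CPM in the earlier HY cows and 50.5 in the earlier LY cows, with a log2 fold change of 1.84 ± 1.39 (unadjusted p above 0.05). For IGLL1 the earlier log2 fold change was 3.15 ± 1.49, for CAND2 1.46 ± 0.89 and for PUS10 0.26 ± 0.43. MIA, at -1.38 ± 0.67, kept its direction. SLC10A1, NR2E1 and PRSS2 had too few counts in the earlier cows to be tested there. The milk protein list had a median of 1.51 in the earlier cows and -1.21 in the late ones, and the ribosomal protein list 0.48 and -0.23.

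Whether the contrast differed between late and earlier lactation was tested as an interaction over all 21 cows. edgeR called 0 of 9929 genes (0%), with 167 (1.68%) at an unadjusted p under 0.05, and DESeq2 called 0, with 256 at an unadjusted p under 0.05. PLS3, an actin-bundling plastin, had the lowest p of the named genes, with a difference of 2.22 ± 0.62 on the log2 scale between the late and the earlier contrast (unadjusted p under 0.05). It was at 13.7, 17.2 and 13.9 CPM in the late HY cows and 5.05 to 15.1 in the late LY cows, and in the fit over 21 cows it averaged 6.55 in the earlier HY cows and 18.8 in the earlier LY cows. CLEC6A, a lectin receptor of myeloid cells, followed with 1.26 ± 0.39, GDE1, a glycerophosphodiester phosphodiesterase, with 1.16 ± 0.39 and CCDC80, an extracellular matrix protein, with 2.17 ± 0.72. The difference for the cadherin CDH16 was -5.87 ± 1.94, on at most 34 counts in a late cow. None passed the adjusted threshold.

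**Figure D5:**
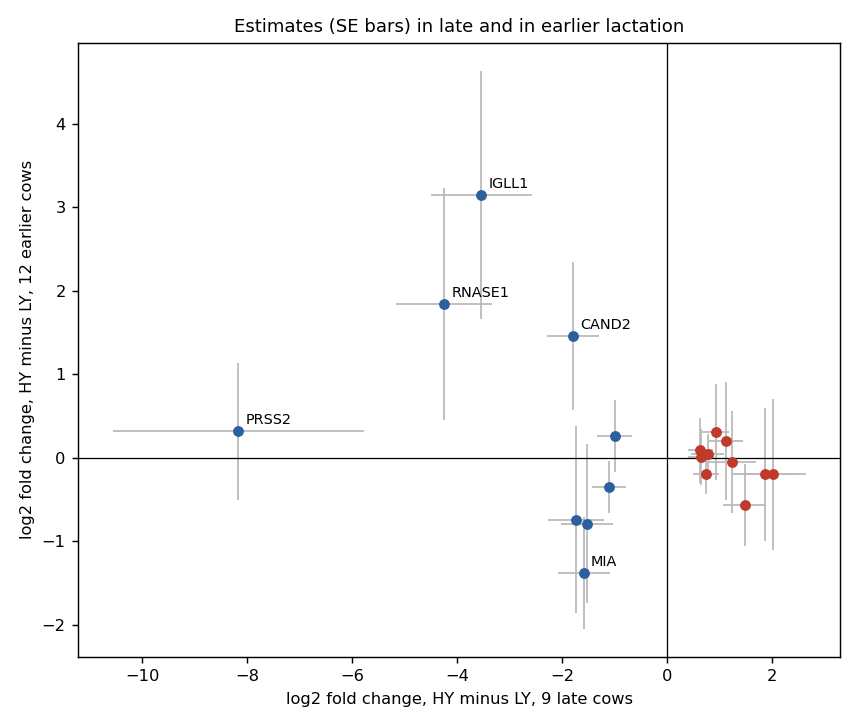
Log2 fold change of HY minus LY in 9 late cows (x axis) against the same contrast in 12 earlier cows (y axis) for the named genes tested in both. Points are red for a higher estimate in late HY and blue in late LY, with standard errors as bars. The point labelled PRSS2 should be disregarded, since PRSS2 was not tested in the earlier cows and has no valid estimate there. IGLL1, RNASE1, CAND2 and PUS10 lie below 0 in late and above 0 in earlier cows, and the red points lie between -0.57 and 0.31 in the earlier cows.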

How the data were processed

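RNA of milk somatic cells was sequenced from 21 cows, 1 library each, and the 9 cows of at least 220 days are described here. Per the study's methods and the submitters' processing notes, the authors trimmed the reads with Trimmomatic, mapped them to bosTau7 with TopHat2 (Bowtie2), and counted them on genes with HTSeq, and they deposited the raw count of each gene without normalization. Versions of these tools, and whether counting used strand, are not given in the sources used here. Lines of reads not assigned to a gene and 1 row that names no gene (0.0865% to 0.151% of counts) were left out, and 23 symbols had turned into dates.

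Groups came from the yield and lactation labels. Genes were filtered with filterByExpr, scaled by TMM and tested with the robust quasi-likelihood test of edgeR 4.0.16 (R 4.3.3), with Benjamini-Hochberg adjustment over all genes tested and 0.05 as the threshold. DESeq2 1.42.0 was the alternative. It gave no adjusted p for 78 genes. CPM are TMM-scaled, and log2 CPM for the principal components used a pseudocount of 0.5. Library values were compared with an exact two-sided permutation test. The code was tested on simulated counts. With 3 cows in HY, 1 cow can decide a value, and intervals of counts cover counting error only.

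Named genes were the 10 per direction with the lowest p among genes without overlap and with a mean of at least 1 CPM, since none passed the adjusted threshold, then from each list the member of lowest p and of highest mean CPM, the study's 10 plotted genes, and 5 genes of the interaction. Not every gene that this rule names is reported here, and those of a list that are not described singly enter its counts. Genes called by DESeq2, members of lists with p under 0.05 or without overlap, and the genes counted in LY only were added after their values were seen. The members and gene lists were chosen with earlier results of these data known. Alternatives were other scalings, filters and fits, parity and lactation period as covariates, other lactation limits, the breeding value in place of groups, and leaving out cows.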

Additional observations from a re-analysis of the deposited data

Results flagged for a closer look

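Among 126 values checked in the 6 LY cows, 11 had 1 cow far from the other 5, a gap that chance gives in about 1 in 20 such groups. The group of 3 HY cows was too small for this check. LY cow 7643 stood apart in 7 of the 11. It was the highest for CISH, a suppressor of cytokine signalling, at 558 CPM against 11.6 to 48.9 in the others. For CSF3, the granulocyte colony-stimulating factor, it had 163 CPM against 0.247 to 2.02, and for the initiation factor EIF3L 188 CPM against 127 to 137. Its summed level of amino acid transporters was 2750 CPM against 1220 to 1650. It was the lowest for the replication clamp PCNA (55 CPM against 110 to 152), for the glutamine transporter SLC38A2 (179 CPM against 401 to 601) and for TOX4 (63.7 CPM against 77.5 to 84). LY cow 7598 was the highest for the cadherin CDH16, at 4.33 CPM against 0.206 to 0.823, and for the summed neutrophil genes, at 16600 CPM against 5450 to 7150. LY cow 2864 had 235 CPM of the macrophage receptor VSIG4 against 103 to 140. In LY cow 3264 the summed complement genes were at 1260 CPM against 1780 to 2140. The part of cell make-up in these values was not tested.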

How the results depend on the processing

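edgeR called 0 genes under every alternative that was run, and unadjusted counts moved with single cows. The number of genes at an unadjusted p under 0.05 was 224 as reported. It was 356 with DESeq2, which called 4 genes, 86 with parity and lactation period as covariates, 116 with all 21 cows in 4 groups, 424 without the LY cows of higher mapping rate, and 103 to 812 when 1 cow was left out. In the fit without LY cow 7643, 51.9% of these genes were higher in HY, and in the fit of 4 groups 44%, against 31.2% as reported. For the added DESeq2 fits, the calls were 14 without the LY cows of higher mapping rate, 2 with the covariates, 0 in 4 groups and 1 to 69 when 1 cow was left out. The interaction count of 167 was 256 with DESeq2, 359 with every gene that had a count and 99 to 417 when 1 late cow was left out. The difference in genes detected was -352 (adjusted exact permutation p = 0.0952) after thinning without milk protein genes, and -507.8 to -298.3 when 1 cow was left out. The causes of these shifts were not tested.

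Among list medians, the fit without the LY cows of higher mapping rate gave 0.27 for involution, 0.5 for endoplasmic reticulum and 1.02 for glycolysis and hypoxia. The same fit gave 0.38 for amino acid transporters, 0.29 for calcium transport and 0.37 for the regression-plot genes. The covariates gave -0.58 for acute phase genes. With a limit of 160 days the medians were 0.26 for the regression-plot genes, 0.01 for the qRT-PCR genes and -0.2 for the respiratory chain, and testing every gene with a count gave -0.04 for the regression-plot genes. When 1 cow was left out, the medians ranged from -0.82 to -0.05 for hormone signalling, -0.86 to 0.09 for involution, -0.9 to 0.88 for neutrophils, -1.05 to -0.02 for cytotoxic lymphocytes, -1.62 to 0.57 for inflammation, -2.05 to -0.71 for acute phase genes, -0.89 to 0.29 for immediate early genes, -0.05 to 0.16 for splicing factors, -0.14 to 0.18 for calcium transport and 0.25 to 0.39 for the regression-plot genes.

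The log2 fold changes that changed sign were those of genes with an unadjusted p above 0.05 as reported. Without the LY cows of higher mapping rate IGF2R was at 0.38 and CD74 at 0.53. A limit of 200 days gave 0.05 for IGF2R, 0.04 for CD74 and -0.14 for ATP2B1, and 1 of 160 days gave 0.42 for IGF2R, 0.13 for DUSP1, -0.01 for PSMB8 and -0.31 for PLS3. The covariates gave 0.17 for CD74, 0.05 for DUSP1 and -0.01 for ATP2B1, which was at 0 with at least 10 counts in every cow. The breeding value in place of the groups gave -0.14 for CCL5, 0.03 for CD74, -0.2 for IL1RN, -0.17 for ATF4, -0.01 for SLC38A2 and -0.05 for ATP2B1. With 1 cow left out the ranges were -0.28 to 0.21 for IGF2R, -0.01 to 0.7 for CTSB, -1.01 to 1.12 for CCL5, -0.34 to 0.62 for CD74, -1.15 to 1.18 for IL1RN, -0.75 to 0.11 for LYZ, -0.92 to 0.55 for ATF4, -0.33 to 1.53 for SLC2A3, -1.74 to 0.24 for DUSP1, -0.52 to 0.47 for SLC38A2, -0.23 to 0.27 for ATP2B1 and -0.1 to 0.59 for PSMB8. No paired analysis was possible because the groups share no replicate numbers.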

Other observations

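A DESeq2 fit without the 3 LY cows with a mapping rate over 85% was added after the data were seen. It called 14 genes, 7 with higher counts in HY and 7 in LY. On the same cows edgeR called 0 of 9383 genes and listed 424 (4.52%) at an unadjusted p under 0.05. Among the 7 on the HY side were NOS2, the inducible nitric oxide synthase, TGM2, a transglutaminase of macrophages and other cells, and EGLN3, BNIP3 and NDUFA4L2, which are known to be induced by low oxygen. NOS2 was at 215, 282 and 245 CPM in HY cows 3014, 3057 and 3064 and at 41.6 to 189 CPM in 5 LY cows, whereas LY cow 7643 had 2120 CPM (DESeq2 log2 fold change 2.12, adjusted p = 2.12e-05). EGLN3, an oxygen-sensing prolyl hydroxylase, was at 159, 98.7 and 92.4 CPM in HY and at 25.1 to 57.6 CPM in the same 5 LY cows, against 102 in cow 7643 (log2 fold change 1.69, adjusted p = 0.00743). BNIP3, a mitophagy receptor, was at 135 to 215 CPM in HY, 45.9 to 125 in the 5 LY cows and 249 in cow 7643. NDUFA4L2 was at 2.77 to 4.92, 0.202 to 2.53 and 7.83 CPM, and TGM2 at 78.5 to 95.9, 28.3 to 61.1 and 233 CPM, in the same order. In all 5 genes every HY cow lay above every LY cow other than 7643. The fit that called them compared HY with 3 of these LY cows, so this separation follows in part from the choice of genes. How many other genes separate when cow 7643 is set aside was not counted. These genes were chosen after their values were seen, and with all 9 cows none of them was called by edgeR or DESeq2.

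On the LY side of the same fit, besides RNASE1, were ANG, which encodes angiogenin, another secreted ribonuclease of the same family, and the growth factor gene TGFB2. ANG was at 41.9, 24.9 and 21.9 CPM in HY and at 82.7, 82.6 and 104 CPM in the LY cows 2864, 3264 and 7598 (log2 fold change -1.62, adjusted p = 0.0372). The LY cows 3272, 7628 and 7643, which this fit left out, were at 9.9, 42.0 and 22.4 CPM, within or below the HY range or just above it. The calcium-binding protein gene CALB1 was at 0.307 to 3.6 CPM in HY, 115, 1.52 and 69.1 CPM in LY cows 2864, 3264 and 7598, and 3.63, 20.2 and 0 CPM in the other LY cows. The part of mapping rate and of cell make-up in these differences was not tested.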
